A study of Drosophila melanogaster with 36 samples.

Results

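Phenobarbital ratios were compared between feeding 3rd instar larvae and adult males of Drosophila melanogaster, as measured on a spotted array for detoxification genes. The comparison was defined by the sample titles and used 7 of the 36 arrays in the series, 4 of larvae and 3 of adult males. All animals were of the y cn bw sp strain. Larvae aged 4.5 days after laying, from eggs laid in a 6 h window and grown at 25 °C, spent 4 h on fly food made with 10 mM phenobarbital. Their controls spent the same time on food without it. Adult males, 4 days past emergence, spent 4 h in 30 ml scintillation vials coated with 10 µl of a 1 M phenobarbital solution in 150 µl acetone that had dried. Their controls were held in vials dried from acetone alone. Stage, dose and route of exposure differed together and cannot be told apart, and the labels give no sex for the larvae.

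For each stage and arm, RNA of 8 samples of 50 animals was joined into 1 pool of 400 individuals before labelling. The arrays of a stage are therefore repeat hybridisations of a single pair of pools, labelled in both dye orientations. Every p-value below compares RNA pools, not animals. The p-values, SEs and intervals rest on the spread between arrays left after a common dye term. This spread is shared over all arrays fitted, except where pool pairs are the unit. There the spread is that between insecticide pool pairs. In the adult group a 4th array was left out because its 1936 values were identical to those of an array of DDT-exposed males. Across the 7 arrays, 1614 to 1686 of 1936 spots gave a ratio, and 158 to 159 of 159 named genes had a value; alpha-Est9 lacked one on 1 adult array.

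Phenobarbital is a barbiturate that raises the transcription of genes for xenobiotic metabolism in mammals and in insects. Cytochrome P450s oxidise foreign and endogenous compounds, and glutathione S-transferases (GSTs) conjugate reactive compounds with glutathione. In Drosophila the transcription factor CncC and the nuclear receptor DHR96 have been tied to the response to this drug. The insect P450s fall into the CYP2, CYP3, CYP4 and mitochondrial clans, and the insect GSTs most often linked to insecticide metabolism belong to the delta and epsilon classes.

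All values given are log2 ratios of the exposed over the control pool, centred on each array's median of the 159 named genes, so that a value of 1 is a 2-fold ratio relative to that median. Only ratios were used, so no level of a gene in either stage is known, and fewer cells of a type and less RNA per cell cannot be told apart in whole animals. The direction of the ratio was not stated. It was taken as red over green, the convention of limma, which puts Cyp6a2, Cyp6a8 and Cyp6a9, known to be induced by this drug, above 0 in both stages; with the other direction every higher and lower would swap. A gene was called where limma's Benjamini-Hochberg adjusted p was under 0.05 and the change was at least 1.5-fold.

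In larvae 36 genes rose (22.6% of the 159) and 33 fell (20.8%). In adult males 27 rose (17%) and 2 fell (1.26%). The larval falls depended on centring and scaling: of the 33 genes, 2 were still called without centring, 3 with arrays centred on 4 control genes, 13 with arrays centred on all spots and 15 after scaling each array to an equal spread. Of the 36 larval rises, at least 31 were called in each of these settings. The number of larval rises moved as well. It was 54 without centring, 67 with arrays centred on 4 control genes, 41 centred on all spots and 31 after scaling. The number of adult falls also depended on the setting: it was 0 without centring and with either other centring, 7 after scaling, 14 where each compound and stage had a dye term of its own, 18 over pool pairs and 17 with only the Cy3 orientation. The difference between the stages was called for 28 genes: in 18 (11.3%) the ratio was higher in larvae, and in 10 (6.29%) it was lower. With the pool pair as the unit, and the spread taken from 5 larval insecticide pool pairs, 17 of these 18 and all 10 were called, and the counts were 21 higher and 17 lower. This fit averaged the same arrays into 1 value per stage, so it cannot show how phenobarbital pools of either stage vary. The genes highest in larvae relative to adults were Cyp28a5, Cyp6d4, Cyp4d14, Cyp9b1 and Cyp6a9, all P450s, followed by Hsp22, which encodes a mitochondrial small heat shock protein. Those lowest in larvae relative to adults were Cyp6a8, GstE8 and Cyp311a1. All 4 larval arrays lay above all 3 adult arrays for 17 genes (10.7%) and below them for 14 (8.81%); 15 and 8 of these were also called.

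**Figure D1:**
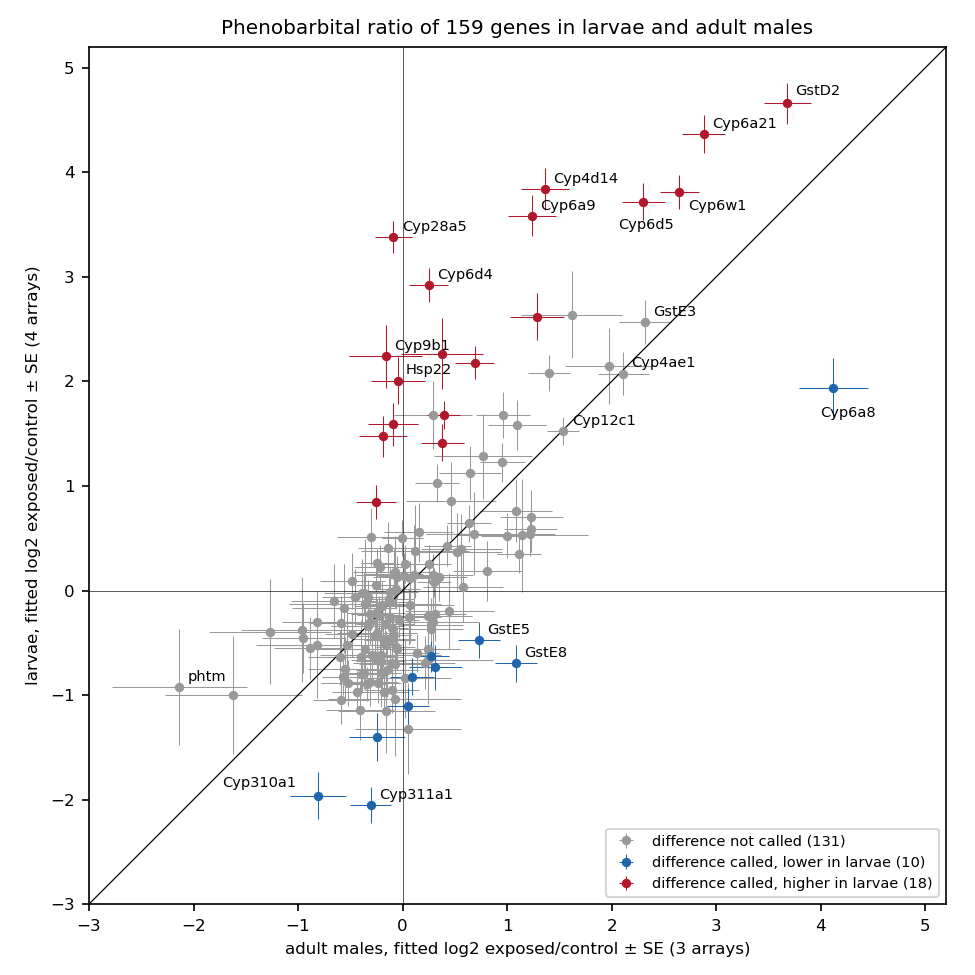
Fitted log2 exposed/control ratio of each of 159 genes in adult males (horizontal, 3 arrays) and in larvae (vertical, 4 arrays). Bars are SE and the diagonal marks equal ratios. Of the coloured genes, 18 lie above the diagonal, Cyp28a5 farthest, and 10 below it, Cyp6a8 farthest.

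Over all genes the ratios ranged more widely in larvae, with an SD of 1.24 on the log2 scale against 0.85 in adult males. The median SE of a gene's ratio was 0.22 in larvae and 0.26 in adults, and that of a difference was 0.34. Across the 159 genes, which share pools and arrays and are not independent, the ratios of the stages correlated at r = 0.72 and rho = 0.63. The median difference over all genes was -0.04.

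The first set comprised 10 genes that rose in larvae, were not called in adult males, and differed between the stages. Cyp28a5, a P450 of the CYP3 clan, had larval array values of 4.05, 2.65, 4.17 and 2.67 on arrays 1 to 4 and adult values of 0.34, -0.45 and 0.31 on arrays 1 to 3. The lowest larval array thus stood well above the highest adult array. Its fitted ratio was 3.38 ± 0.15 (SE, n = 4 arrays), or 10.4-fold, in larvae and -0.09 ± 0.18 (SE, n = 3 arrays) in adults, a difference of 3.47 ± 0.23 (limma adjusted p = 9.25e-13). The larval SE does not measure the spread of the 4 larval values, whose SD was 0.84.

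Cyp6d4, also of the CYP3 clan, showed 3.43, 2.36, 3.56 and 2.35 on the larval arrays and 0.58, 0.13 and 0.46 on the adult arrays. It rose 7.59-fold in larvae, stood at 0.25 ± 0.19 in adults, and differed by 2.67 ± 0.24 (limma adjusted p = 9.73e-10). Cyp9b1, of the same clan, had values of 2.78, 1.62, 2.94 and 1.61 in larvae against 0.00, -0.37 and -0.09 in adults. For both genes the groups did not overlap, and the difference of Cyp9b1 was 2.40 ± 0.46 (limma adjusted p = 0.000148).

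Hsp22 had array values of 2.38, 1.61, 2.48 and 1.56 in larvae and -0.04, -0.05 and 0.09 in adults, so its adult ratio lay close to 0 on each array. It rose 4.02-fold in larvae, and the difference was 2.05 ± 0.34 (limma adjusted p = 2.95e-05). Of the other 2 small heat shock genes measured, Hsp27 fell in larvae (-0.80 ± 0.16) and was not called in adults (-0.39 ± 0.19), and Hsp26 was not called in either (-0.36 ± 0.13 and -0.10 ± 0.15). On each array the Hsp22 ratio exceeded that of Hsp27, by 2.40 to 3.15 in larvae and by 0.14 to 0.69 in adults, a quantity that centring cannot alter.

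Cyp12a5, a mitochondrial P450, had larval values of 2.59, 2.07, 2.45 and 1.95 and adult values of -0.02, 1.00 and -0.07. Adult array 2 was the highest of its group, yet still below each larval array, and the difference was 1.89 ± 0.52 (limma adjusted p = 0.00762). It was not called as deposited (limma adjusted p = 0.211) or with arrays centred on all spots (limma adjusted p = 0.0555). GstT4, a theta class GST, had values of 2.02, 1.21, 2.08 and 1.05 in larvae and 0.22, -0.29 and 0.15 in adults, with a difference of 1.68 ± 0.32 (limma adjusted p = 0.000146). GstD6, a delta class GST, had values of 2.11, 0.87, 2.20 and 0.71 in larvae against -0.47, 0.13 and -0.11 in adults. These groups did not overlap either, and GstD6 differed by 1.66 ± 0.30 (limma adjusted p = 0.000103).

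The remaining 3 of the 10, named after their values were seen, were Cyp6a17, Cyp12a4 and Cyp6a23. Cyp6a17 had 1.77, 1.61, 1.79 and 1.53 in larvae and 0.46, 0.40 and 0.29 in adults, with no overlap and a difference of 1.28 ± 0.21. Cyp12a4 had 1.58, 0.18, 1.65 and -0.01 against 0.12, -0.52 and 0.15 and differed by 1.10 ± 0.25, and Cyp6a23 had 2.09, 0.69, 2.28 and 0.60 against 0.70, 0.18 and 0.76 and differed by 1.03 ± 0.27. Larval array 4 of Cyp12a4 and larval arrays 2 and 4 of Cyp6a23 overlapped with the adult arrays. None of the 3 differences was called as deposited (limma adjusted p = 0.211 for each), and Cyp6a17 (0.70) and Cyp6a23 (0.39) were not called once arrays had equal spread. Another 4 genes rose in larvae and were not called in adults, but their difference was not called: Cyp6a22 (1.38 ± 0.50, limma adjusted p = 0.0524), GstD10 (0.70 ± 0.28), Cyp6a13 (0.51 ± 0.62) and GstO3 (0.47 ± 0.39). For these the call in larvae and its absence in adults do not amount to a difference between the stages. Cyp6a22 came closest: its larval arrays (1.95, 1.48, 1.92 and 1.35) all lay above its adult arrays (0.57, 0.02 and 0.46). Over pool pairs its difference was called (1.41, limma adjusted p = 0.00286). The others had overlapping arrays and were not called over pool pairs.

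A second set of 8 genes rose in both stages and rose further in larvae. Cyp4d14, of the CYP4 clan, had values of 4.45, 3.32, 4.31 and 3.30 in larvae and 1.35, 1.51 and 1.52 in adults. It rose 14.4-fold in larvae and 2.57-fold in adults, a difference of 2.48 ± 0.31 (limma adjusted p = 4.54e-07), which came to 0.99 and was not called once arrays had equal spread (limma adjusted p = 0.0692). Cyp6a9 had values of 4.23, 2.80, 4.45 and 2.85 in larvae and 1.58, 0.96 and 1.59 in adults, rising 12-fold and 2.36-fold. The larval values of both genes were all above the adult ones, and the difference of Cyp6a9 was 2.35 ± 0.30 (limma adjusted p = 6.75e-07). Cyp4e3 rose 4.53-fold in larvae (arrays 2.56, 1.79, 2.63 and 1.73) and 1.61-fold in adults (arrays 0.66, 0.86 and 0.71), a difference of 1.49 ± 0.24. Without adult array 2 the adult ratio of Cyp4e3 was 0.51 and was no longer called.

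These 8 also include the genes with the highest larval ratios. GstD2 stood at 5.50, 3.71, 5.51 and 3.92 in larvae and 3.81, 3.65 and 4.02 in adults, the highest larval ratio of any gene (25.3-fold), and rose 12.8-fold in adults. Its larval arrays 2 and 4, with the exposed pool in Cy3, overlapped with the adult arrays, while arrays 1 and 3 lay clear of them. The difference of 0.98 ± 0.30 (limma adjusted p = 0.0159) was lost with larval array 1 or 3, or adult array 1 or 3, left out, with values of 0.83, 0.83, 0.83 and 0.93. It was also lost over pool pairs (0.88, limma adjusted p = 0.0789) and with only the 7 phenobarbital arrays.

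Cyp6a21 had values of 4.97, 3.62, 5.13 and 3.75 in larvae and 3.06, 2.77 and 3.18 in adults. It rose 20.6-fold in larvae and 7.36-fold in adults, and differed by 1.49 ± 0.27. Cyp6d5 differed by 1.42 ± 0.27, GstD5 by 1.33 ± 0.34 and Cyp6w1, with 4.07, 3.68, 4.01 and 3.51 in larvae and 2.65, 2.57 and 2.81 in adults, by 1.17 ± 0.25. The array groups of these 4 genes did not overlap, the closest being GstD5, whose lowest larval array stood at 1.78 and whose highest adult array at 1.63. Their sign depended on the scale of the arrays. When each array was divided by the spread of its named genes, the difference turned for GstD2 (-1.53, limma adjusted p = 0.00111), Cyp6w1 (-0.71), Cyp6a21 (-0.69) and Cyp6d5 (-0.41), and GstD5 came to 0.07. Without centring the values kept their sign, but of these 5 genes Cyp6a21 alone was called (1.60, limma adjusted p = 0.0405), while GstD2, Cyp6w1, Cyp6d5 and GstD5 were not (limma adjusted p from 0.0568 to 0.258).

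**Figure D2:**
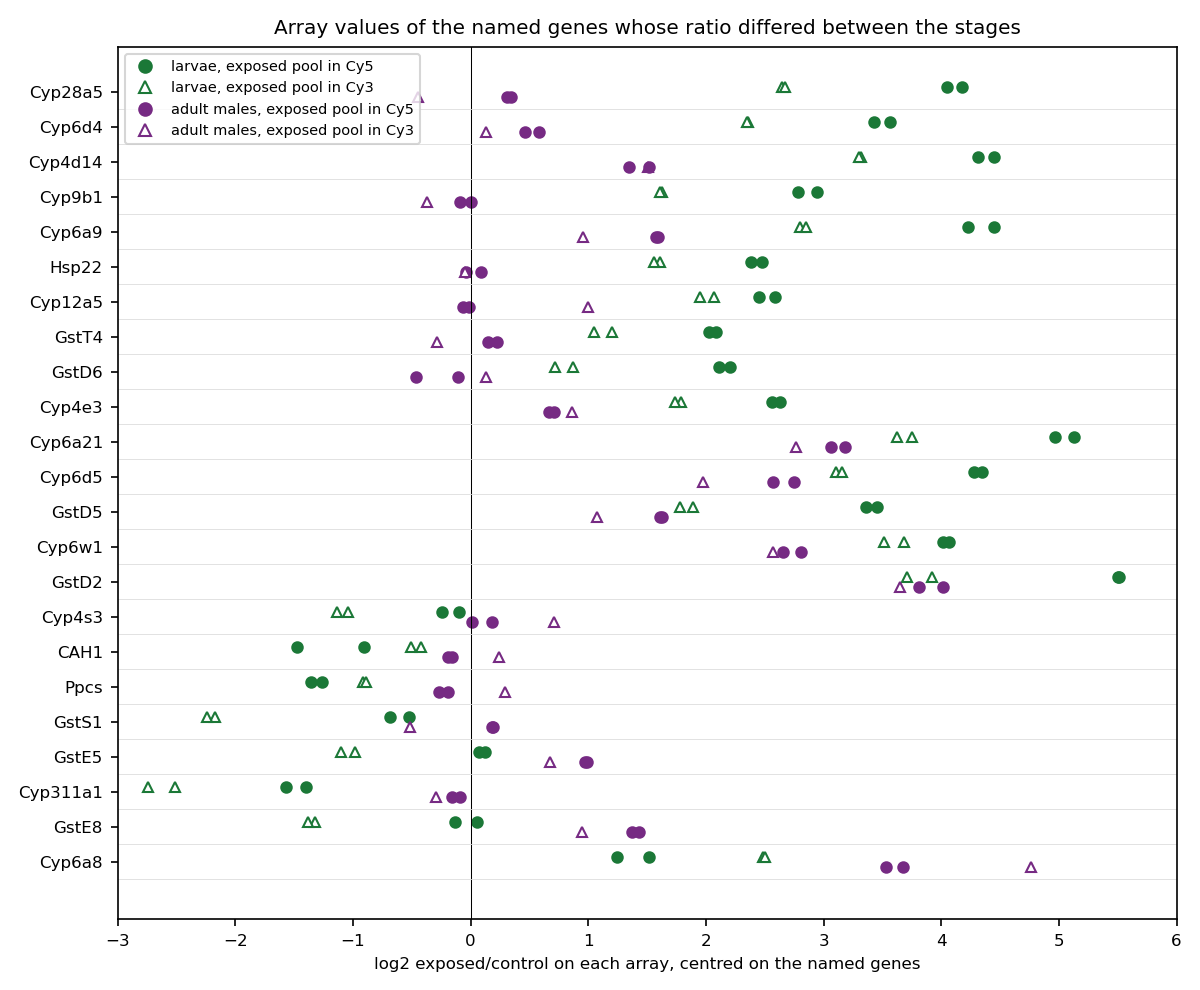
Log2 exposed/control ratio on each array, centred on the named genes, for the 23 named genes whose difference was called. Green marks are the 4 larval arrays and purple marks the 3 adult arrays, filled with the exposed pool in Cy5 and open in Cy3. The colours are apart for each gene but GstD2, and filled and open larval marks stand apart for most genes.

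The values also differed by dye orientation within larvae. For Cyp28a5 the arrays with the exposed pool in Cy5 gave 4.05 and 4.17, against 2.65 and 2.67 with the pool in Cy3. With only the arrays of the Cy5 orientation, 18 of the 18 higher genes were called again, and with only those of the Cy3 orientation, which leaves 1 adult array, 15 were. That array is assumed to vary like those of the other groups, so the latter count is no check on adult spread. The difference of Cyp28a5 was 3.78 and 3.11 in these subsets, and that of Cyp6d4 was 2.97 and 2.23. Among the higher genes the call was lost in the Cy3 orientation for Cyp12a5 (1.01), GstD2 (0.17) and Cyp6a23 (0.46). With only the Cy5 orientation, 8 of the 10 lower genes were called again, while Cyp4s3 and Nlg1 (-0.59) were not. In the Cy3 orientation CAH1 came to -0.70 and Cyp310a1 to 0.27, and their calls and that of Ppcs were lost.

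In the opposite direction, Cyp6a8 had the largest difference. This CYP3 clan P450, whose enzyme hydroxylates lauric acid, is a classical phenobarbital-inducible gene. Its arrays gave 1.52, 2.49, 1.25 and 2.50 in larvae and 3.53, 4.76 and 3.68 in adult males, so each adult array lay above each larval one. It rose 3.83-fold in larvae and 17.4-fold in adults, where it had the highest ratio of any gene, a difference of -2.18 ± 0.43 (limma adjusted p = 0.000277). Both dye orientations gave close values, -2.22 and -2.27. The difference was not called with the copied adult array kept (-1.29) or without centring (-2.06, limma adjusted p = 0.11).

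A pair of epsilon class GSTs also had lower ratios in larvae. GstE8 was the 1 gene called in opposite directions: its values were -0.13, -1.33, 0.05 and -1.39 in larvae and 1.37, 0.95 and 1.43 in adults. The fitted ratio was -0.70 ± 0.18 in larvae and 1.08 ± 0.20 in adults, a difference of -1.78 ± 0.27 (limma adjusted p = 8.7e-06). The adult rise and the difference were called under each way of centring and scaling, but the larval fall was not: it was 0.08 as deposited, 0.02 with arrays centred on 4 control genes, and -0.47 centred on all spots. GstE5 had values of 0.07, -0.98, 0.12 and -1.10 in larvae and 0.99, 0.68 and 0.97 in adults, and differed by -1.20 ± 0.26 (limma adjusted p = 0.00086). It rose in adults (0.73 ± 0.20), although without adult array 2 this ratio was 0.51 and not called, and in larvae it stood at -0.47 ± 0.17.

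Further genes fell in larvae and were not called in adults. Cyp311a1, of the CYP4 clan, had larval values of -1.56, -2.51, -1.40 and -2.74 and adult values of -0.16, -0.29 and -0.09, with no overlap and a difference of -1.75 ± 0.26 (limma adjusted p = 7.55e-06). GstS1, the sigma class GST abundant in flight muscle, stood at -0.68, -2.17, -0.52 and -2.24 in larvae and 0.18, -0.51 and 0.19 in adults. The groups only just separated, and the difference of -1.16 ± 0.35 was lost without adult array 2 (-0.98). Ppcs, which encodes the phosphopantothenoylcysteine synthetase of coenzyme A synthesis, had -1.26, -0.91, -1.35 and -0.89 in larvae and -0.19, 0.29 and -0.27 in adults and differed by -1.16 ± 0.26. Its larval arrays were all below its adult arrays, as were those of the carbonic anhydrase gene CAH1, which differed by -0.91 ± 0.27. Cyp4s3 differed by -0.90 ± 0.23, which was lost without adult array 2 (-0.60) and with only the 7 phenobarbital arrays. The difference of CAH1 was lost without larval array 3 (-0.81) or adult arrays 1 or 3 (-0.85 and -0.87).

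The last 2 of the 10 lower genes had overlapping arrays and are named after their values were seen. Cyp310a1 fell in both stages, with -2.09, -2.06, -2.01 and -1.69 in larvae and -0.33, -2.14 and 0.18 in adults, where array 2 stood far below the other two. Without that array its adult ratio was -0.14 and was not called. The adult call was also lost with the copied adult array kept (-0.46), in each other centring (-0.15 as deposited, -0.58 on control genes and -0.47 on all spots), with only the 7 phenobarbital arrays (-0.88) and in the Cy5 orientation (-0.07). Nlg1, which encodes the synaptic protein neuroligin 1, had -1.51, -0.27, -0.99 and -0.17 in larvae and -0.61, 1.70 and -0.71 in adults, with array 2 far above the others. Its difference was lost without that array (-0.57) and without larval array 1 (-0.96) or 2 (-1.02). That of Cyp310a1 was lost without larval array 1 (-1.05) or 3 (-1.08) and without adult array 1 (-0.98) or 3 (-0.73). It turned to 0.27 with only the arrays of the Cy3 orientation. The difference of Cyp310a1 was also lost with only the 7 phenobarbital arrays (-1.08), the median of spots (-1.25) or at least 3 spots (-0.96). With the median of spots that of Nlg1 (-1.02) was lost as well.

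Most of the genes that fell in larvae had no called difference. Of 31 genes that fell in larvae and were not called in adults, 25 were of this kind, among them the esterase gene alpha-Est6 (-1.37 ± 0.67), which had the lowest ratio difference of them, and Gapdh1 (-0.65 ± 0.30). In the reverse case, 4 genes rose in adults and were not called in larvae, GstE5, GstE1, GstD1 and Cyp6t1, and of these GstE5 alone had its difference called. GstE1 missed the threshold narrowly (-0.76 ± 0.28, limma adjusted p = 0.0529), and the difference of Cyp6t1 was -0.47 ± 0.33. In 85 of the 159 genes neither stage was called.

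In all, 22 genes rose in both stages with arrays centred on the named genes. This was 61.1% of the 36 larval rises and 81.5% of the 27 adult rises. Of these, 8 had the difference called higher in larvae, Cyp6a8 had it called lower, and for 13 it was not called. Some of the 13 had close ratios: Cyp12c1, a mitochondrial P450, was 1.53 ± 0.13 in larvae and 1.54 ± 0.15 in adults, a difference of -0.01 with a 95% interval of -0.42 to 0.40. Cyp4ae1 differed by -0.04 (-0.69 to 0.62) and GstE3, the 1 epsilon GST that rose in larvae, by 0.25 (-0.42 to 0.92). These intervals leave room for differences in either direction, and the values of GstE3 turned with arrays scaled to the same spread (-1.40, limma adjusted p = 1.18e-05). Cyp12c1 and Cyp4ae1 were then called lower in larvae, at -0.85 and -1.24.

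Cyp6a2, a P450 that metabolises DDT and other insecticides, rose 4.43-fold in larvae and 3.94-fold in adults. Its arrays disagreed, with 1.36, 3.08, 3.32 and 0.84 in larvae and 1.49, 0.84 and 3.59 in adults. The difference of 0.17 had an interval of -0.97 to 1.31 and changed sign when larval array 2 or 3, or adult array 1 or 2, was left out. Without adult array 3 its adult ratio was 1.16 and not called. Cyp6g1, tied to DDT resistance when overexpressed, rose in larvae (1.68 ± 0.22) and adults (0.96 ± 0.26), and its difference of 0.72 ± 0.34 was not called. GstD1, known for DDT dehydrochlorinase activity, rose in adults (1.22 ± 0.24) and did not reach the size threshold in larvae (0.54 ± 0.21); its difference was -0.68 ± 0.32 and not called. With arrays centred on all spots both were called, Cyp6g1 higher in larvae (0.60) and GstD1 lower (-0.80).

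Of the other genes in the set of 22, Cyp4e2 differed by 0.67 ± 0.27, GstD7 by 1.02 ± 0.64, Cyp4p1 by 0.49 ± 0.37, GstD4 by 0.27 ± 0.28, GstD3 by 0.01 ± 0.28, Cyp9b2 by -0.32 ± 0.46, Cyp12b2 by -0.52 ± 0.40 and Cyp4d8 by -0.64 ± 0.33, none of them called. Under scaling to the same spread Cyp4e2, Cyp4p1, GstD4 and GstD3 had lower ratios in larvae, as did Cyp6a2 and Cyp6g1. Cyp4e2 was called higher with arrays centred on control genes (1.16), with the median of spots (0.79), with a dye term per compound and stage (0.59), with the copied adult array kept (1.12), without adult array 2 (0.87) and in the Cy5 orientation (1.09). Cyp4d8 was called lower with the dye term (-0.60) and in the Cy3 orientation (-0.86). Without adult array 2, 7 of the 22 were no longer called in adults: Cyp4e3, Cyp4p1, Cyp6g1, Cyp9b2, GstD3, GstD4 and GstD7. That array alone of the 3 had the exposed pool in Cy3, so the fitted ratio then hung on the dye term common to all arrays. GstD3 came to 0.42 although its adult arrays 1 and 3 stood at 0.97 and 1.04. Such a loss need not mean that array 2 carried the rise. The adult rise was also lost for Cyp4p1 without array 1 and for Cyp6a2, Cyp9b2, Cyp12b2 and GstD3 without array 3. The larval rise was lost without larval array 1 or without larval array 3 for Cyp4d8, Cyp9b2, Cyp12b2 and GstD3, for Cyp9b2 also without array 2 and for Cyp12b2 also without array 4. Some rises also depended on the dye orientation. With only the Cy5 orientation, Cyp4d8 stood at 0.01 in larvae and 0.35 in adults and was called in neither. Cyp12b2 (0.25) was then not called in larvae, nor Cyp9b2 (0.49) in adults. With only the Cy3 orientation the larval ratio was -0.22 for GstD3 and 0.52 for GstD4. GstD3 was called in neither stage over pool pairs (limma adjusted p of 0.082 in larvae and 0.0801 in adults), and the array number as a block left its adult limma adjusted p at 0.0506. In 12 of the 22 the rises of both stages were called in each of 20 settings: Cyp12c1, Cyp4ae1, Cyp4d14, Cyp4e2, Cyp6a21, Cyp6a8, Cyp6a9, Cyp6d5, Cyp6w1, GstD2, GstD5 and GstE3.

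The gene lists, grouped by symbol, can be read against the shares of all genes, 11.3% higher and 6.29% lower. Of 85 P450s, 13 had higher ratios in larvae and 4 lower, with a median difference of 0.05. In the CYP3 clan 9 of 38 were higher and 2 lower, and in its Cyp6a subfamily 4 of 14 were higher and Cyp6a8 lower. Of the 3 members of the Cyp6d subfamily, Cyp6d4 and Cyp6d5 were higher, while Cyp6d2 did not differ detectably (-0.25 ± 0.26). The CYP4 clan had 2 of 32 higher, Cyp4d14 and Cyp4e3, and 2 lower, Cyp311a1 and Cyp4s3. In the mitochondrial clan 2 of 9 were higher, Cyp12a5 and Cyp12a4, with a median difference of 0.25. None of the 6 CYP2 clan genes was called by the contrast. Over pool pairs phtm (1.69) was called higher in larvae and Cyp305a1 (-0.88) lower.

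Of the 34 GSTs, 4 had higher ratios in larvae and 3 lower. Of 11 delta GSTs 3 were higher in larvae and 0 lower, with a median difference of 0.27, from GstD6 (1.66) to GstD11 (-0.79). Of 11 epsilon GSTs 0 were higher and 2 lower, with a median difference of -0.74, from GstE11 (0.55) to GstE8 (-1.78). No test set one class against the other, and GstD5 and GstD2 were not called higher once arrays had equal spread. Of 12 other GSTs, GstT4 was higher and GstS1 lower. The esterase list of 15 genes was taken by symbol and includes the neuroligin genes Nlg1, Nlg3 and Nlg4. In it 0 were higher and 1 lower, Nlg1, with a median of 0.04, so no other member of this list was called. Over pool pairs alpha-Est6 (-1.22) was called lower too. Genes with only a CG symbol were counted among 25 other genes, of which Hsp22 was higher and 2 were lower, Ppcs and CAH1. The list of inducible genes named in earlier literature had 2 of 6 higher (Cyp6a9 and GstD2) and Cyp6a8 lower.

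Genes that lie next to each other in the reference annotation (Release 6 plus ISO1 MT, used for gene order alone) were taken as runs where at least 2 in a row were measured. Of 26 such runs, 17 held no called difference, 8 held called and uncalled genes, and in 1 each gene was called; neighbours were not tested against each other. On chromosome arm 2R, in the order Cyp6a22, Cyp6a17, Cyp6a23, Cyp6a19, Cyp6a9, Cyp6a20, Cyp6a21 and Cyp6a8, the differences were 1.38, 1.28, 1.03, -0.17, 2.35, 0.00, 1.49 and -2.18. Thus 4 of the 8 were called higher in larvae and the end gene was called lower. Cyp6a19 and Cyp6a20 stood near 0 with intervals of -1.20 to 0.87 and -0.62 to 0.62. Within single arrays, the ratio of Cyp6a8 minus that of Cyp6a9 was -2.71, -0.32, -3.20 and -0.35 in larvae and 1.95, 3.80 and 2.09 in adults. The order of this pair thus turned between the stages on each array, and it does not depend on centring.

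The delta GSTs form a run of 10 measured genes on arm 3R. In the order GstD10, GstD9, GstD1, GstD2, GstD3, GstD4, GstD5, GstD6, GstD7 and GstD8 the differences were 0.70, 0.00, -0.68, 0.98, 0.01, 0.27, 1.33, 1.66, 1.02 and 0.05. The called genes were GstD2, GstD5 and GstD6. GstD6 was the only one of these 3 without a rise in adults, and GstD8 was not called in either stage (-0.15 ± 0.23 and -0.20 ± 0.27). On each array the GstD2 ratio exceeded that of GstD1, by 3.94 to 4.24 in larvae and by 2.18 to 2.66 in adults.

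Of the measured epsilon GSTs on arm 2R, GstE3, GstE4 and GstE5 stood side by side with differences of 0.25, -0.28 and -1.20, and GstE8 and GstE9 with -1.78 and -0.74. The neighbours Cyp9b1 and Cyp9b2 differed by 2.40 and -0.32: Cyp9b1 was called in larvae alone, while Cyp9b2 was called in both stages. On the X, Cyp4d14, Cyp4d2 and Cyp4ae1 had differences of 2.48, 0.24 and -0.04. On arm 3R the neighbours Cyp12a5, Cyp12a4 and Ppcs had 1.89, 1.10 and -1.16, a pair of P450s higher in larvae beside a gene that was lower. Genes of these runs outside the rule for named genes were chosen after their values were seen. Probe sequences were not used here, so cross-hybridisation between such close relatives was not tested.

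**Figure D3:**
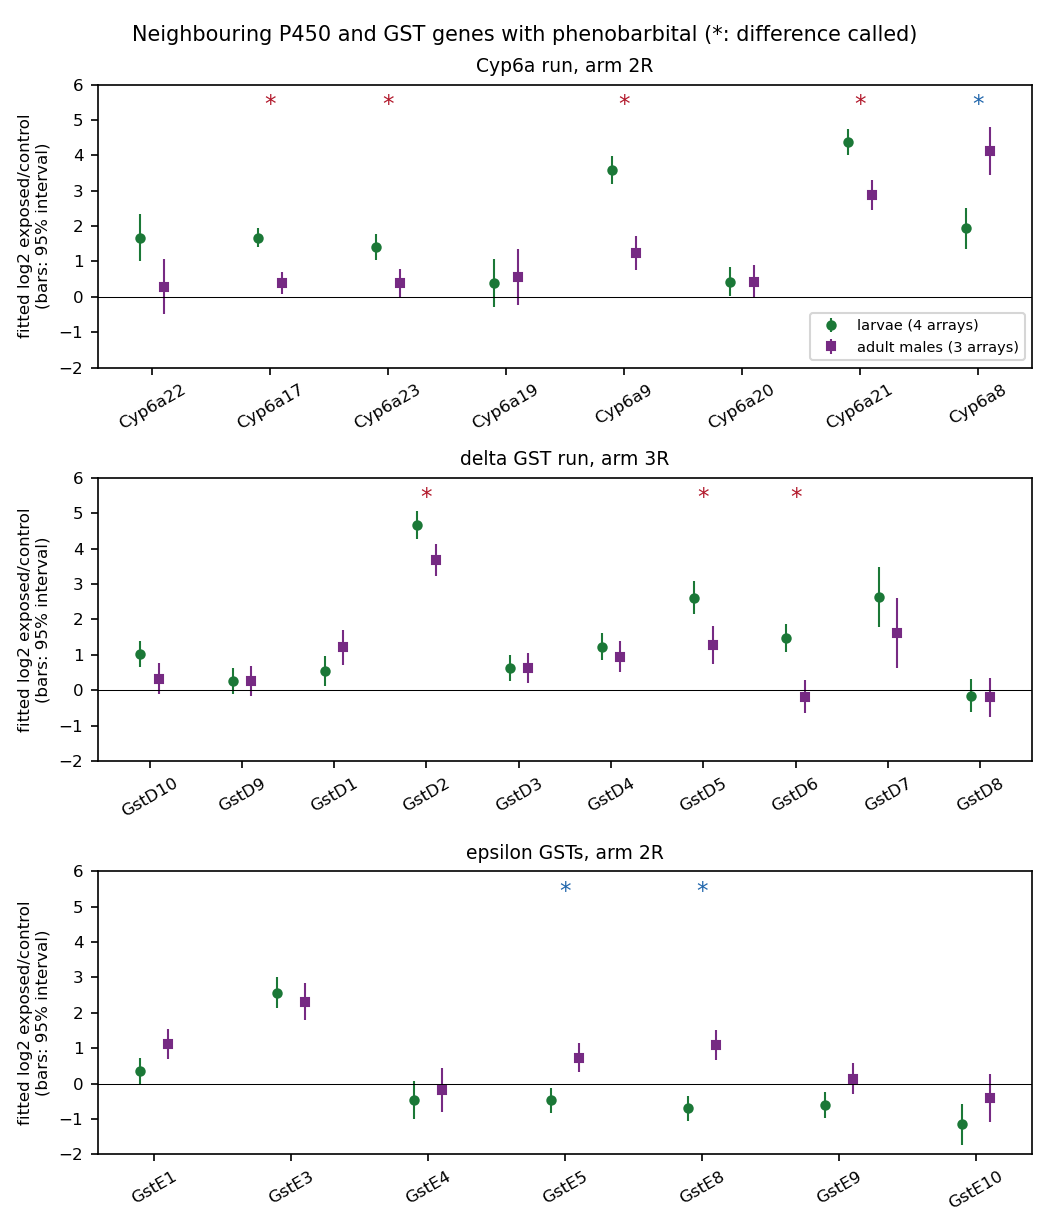
Fitted log2 exposed/control ratios with 95% intervals in larvae (circles, 4 arrays) and adult males (squares, 3 arrays) for the Cyp6a and delta GST runs in gene order and the measured epsilon GSTs in number order. Stars mark called differences, red higher and blue lower in larvae. Cyp6a9 and Cyp6a21 have higher larval ratios and Cyp6a8 a higher adult ratio.

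Genes that mark particular tissues were read in the same way. Cyp4g1, the hydrocarbon-forming P450 that defines oenocytes, had -0.95 ± 0.23 in larvae and -0.10 ± 0.26 in adults, a difference of -0.85 ± 0.35 that was not called (limma adjusted p = 0.0921). Of 4 nervous system genes, 1 (Nlg1) was lower in larvae and 0 were higher, with a median difference of 0.20, the highest being Ace (0.34 ± 0.31), which encodes acetylcholinesterase. The esterase gene Est-P, the paralogue beside Est-6, stood at -0.39 ± 0.50 in larvae and -1.27 ± 0.58 in adults and was not called. As ratios alone were used, these markers cannot check the stage of the animals. Of 5 ecdysteroid synthesis genes 0 differed by call, although over pool pairs phtm was called higher in larvae (1.69, limma adjusted p = 0.0018). This P450 of that pathway, named after its values were seen, fell in adults (-2.14 ± 0.64). Its adult arrays stood at -2.22, -3.60 and -1.04, and this adult call was fragile. It was lost without adult array 2 (-1.05), with the copied adult array kept (-0.85), as deposited (-1.48), centred on 4 control genes (-1.92) and centred on all spots (-1.80).

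The genes that differed between the stages were also read with caffeine in larvae and with DDT in adult males, each from pools of its own. The 5 insecticides given to larvae in this series were not read here. In larvae given caffeine 20 genes rose (12.6% of all), and 9 of the 18 genes higher in larvae were among them. They were led by Cyp6d5 (3.30 ± 0.17) and Cyp6w1 (3.01 ± 0.16). Of the 6 genes highest in larvae relative to adults, Cyp28a5 (0.37 ± 0.15), Cyp9b1 (0.65 ± 0.30) and Hsp22 (0.24 ± 0.22) were not called with caffeine. Of the same 6, Cyp6d4 (1.24 ± 0.16), Cyp6a9 (0.98 ± 0.20) and Cyp4d14 (0.76 ± 0.20) rose. In adult males given DDT 7 genes rose (4.4% of all), and 3 of the 18 were among them, GstD2 (1.19 ± 0.23), GstD5 (0.95 ± 0.26) and GstT4 (0.84 ± 0.24). Cyp6a8 rose with caffeine in larvae (3.05 ± 0.28), above its larval ratio with phenobarbital of 1.94 ± 0.28, a gap that was not tested, and fell with DDT in adults (-1.23 ± 0.33). GstE8 was not called with either (-0.03 ± 0.18 and 0.56 ± 0.20).

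The differences were set against 4 other ways of centring or scaling the arrays. Of the 18 higher genes, 6 were called in all of them: Cyp28a5, Cyp6a9, Cyp6d4, Cyp9b1, GstT4 and Hsp22. Of the 10 lower genes, 2 were: Cyp311a1 and GstE8. The control genes Gapdh1, RpL10Aa, RpS20 and RpS21 were all 4 called lower in larvae and not called in adults. Their larval values were far lower on arrays 2 and 4, with the exposed pool in Cy3, than on arrays 1 and 3. RpL10Aa stood at 0.28, -1.60, 0.39 and -1.75 on larval arrays 1 to 4, and Gapdh1 at -0.29, -1.52, -0.19 and -1.55. Centring on these 4 genes moved the median difference of all genes from -0.04 to 0.45. The split of calls moved from 18 higher and 10 lower to 31 and 5. Scaling to the same spread gave 9 higher and 13 lower, and values as deposited gave 8 and 2. Besides the losses given above, the calls of GstD6, Cyp4e3, GstE5, GstS1, Ppcs, CAH1, Cyp4s3, Cyp310a1 and Nlg1 were lost as deposited, those of Ppcs, CAH1, Cyp4s3, Cyp310a1 and Nlg1 when centred on control genes, and those of CAH1 and Nlg1 when centred on all spots. With equal spread the calls of Cyp4e3 (0.67), Ppcs, CAH1, Cyp310a1 and Nlg1 were lost.

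**Figure D4:**
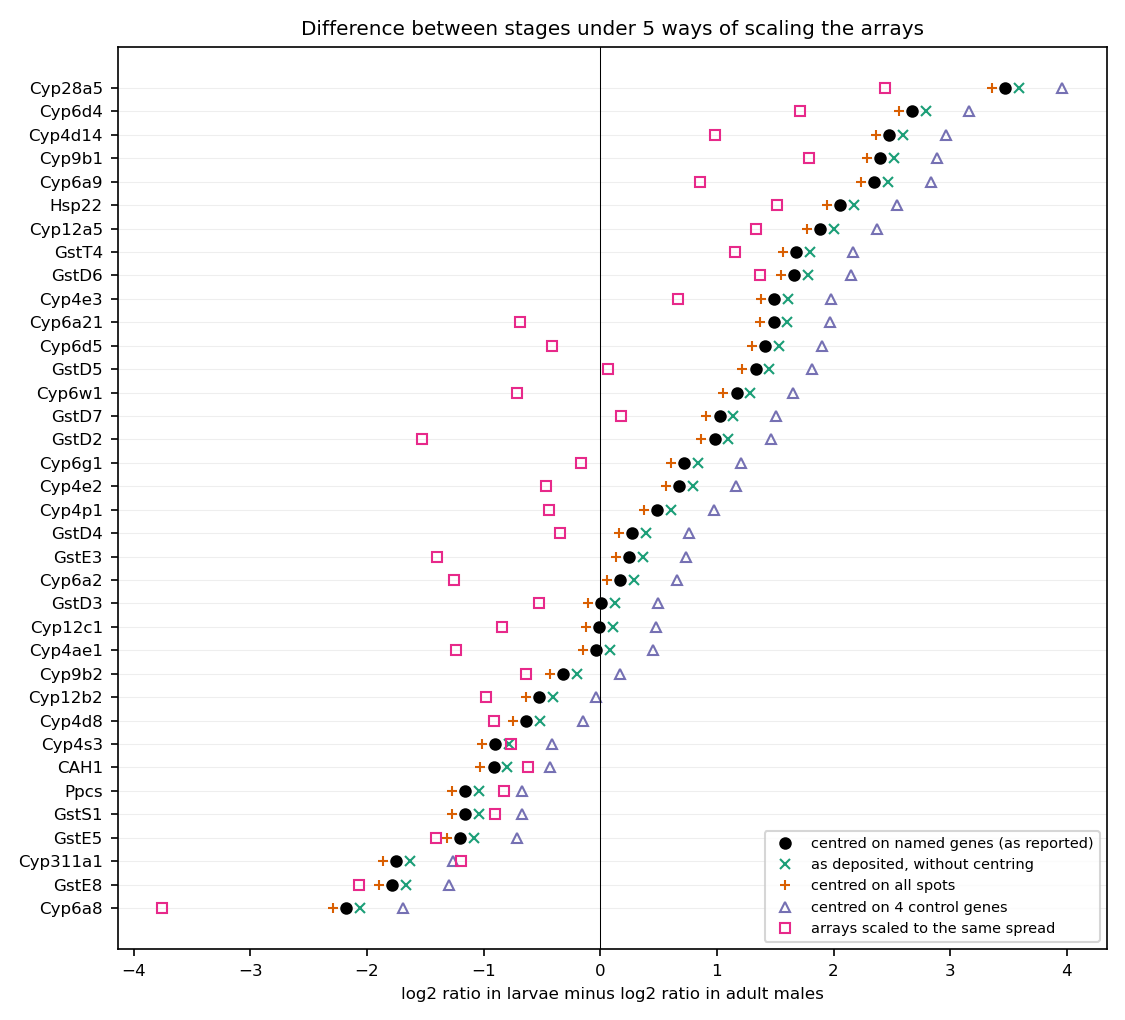
Log2 ratio in larvae minus that in adult males for the 36 named genes called in the contrast or higher in both stages, under 5 ways of centring and scaling the arrays (symbols). Cyp28a5 stays at or above 2.44 in each. GstD2 moves from 0.98 to -1.53 once arrays have equal spread, and Cyp6a8 from -2.18 to -3.75.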

How the data were processed

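The authors deposited log2 ratios of the dyes for 1936 spots on each array. The submitters' processing notes name limma, without its role or version; background handling and normalization are not given in the sources used here. The deposited medians of the named genes ran from -1.95 to 0.44 over the 7 arrays. The value 16.61, the log2 of 100000, was treated as missing, so that 5.07% of named-gene values were absent. By the probe table, 1 gene symbol belonged to 656 spots, several to 8, and 1272 had none; the 656 spots covered 159 genes, 155 of them with 4 spots. No signal intensities were used, so the number of arrays limits the precision.

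Spots of a gene were averaged, the median over named genes was subtracted on each array, and ratios were turned to exposed over control (exposed pool in Cy5 on arrays 1 and 3). Limma 3.58.1 in R 4.3.3 fitted 34 arrays with 1 coefficient per compound and stage, a dye term common to all arrays and a shared array error; the stages were compared by a contrast. Tables were made in Python 3.11.15 (numpy 2.4.6, pandas 2.3.3), figures in matplotlib 3.10.9, and the fits were tested on simulated data. An exact permutation of 4 against 3 arrays cannot give a two-sided p below 0.0571, so none was run per gene. Equal array numbers share a dye orientation, and their deviations from the stage means correlated across genes at 0.133, 0.364 and 0.401 for numbers 1 to 3, so the numbers were also fitted as a block. Alternatives changed the centring, scale, spot average, spot filter, dye term, arrays and replicate unit.

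Genes named are the 10 largest non-overlapping called differences each way (10 higher and 8 lower met this), those higher in both stages or called in opposite directions, and the list of inducible genes; list extremes were added. The members, lists and rules were chosen with earlier results of these data known. Promoter sequences were not analysed here.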

Additional observations from a re-analysis of the deposited data

Results flagged for a closer look

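The difference between the stages was itself tested for each gene, and 23 named genes passed. Higher ratios in larvae than in adult males were found for Cyp28a5 (3.47), Cyp6d4 (2.67), Cyp4d14 (2.48), Cyp9b1 (2.40), Cyp6a9 (2.35), Hsp22 (2.05), Cyp12a5 (1.89), GstT4 (1.68), GstD6 (1.66), Cyp4e3 (1.49), Cyp6a21 (1.49), Cyp6d5 (1.42), GstD5 (1.33), Cyp6w1 (1.17) and GstD2 (0.98), as log2 differences of larvae minus adults. Lower ratios in larvae were found for Cyp4s3 (-0.90), CAH1 (-0.91), Ppcs (-1.16), GstS1 (-1.16), GstE5 (-1.20), Cyp311a1 (-1.75), GstE8 (-1.78) and Cyp6a8 (-2.18). One array stood apart: among the larval values of Cyp9b2 the lowest, 0.45, lay farther from the other 3 than Dixon's test for 4 values allows at the 95% level. It was the 1 such array among 37 genes tested in larvae. Chance marks about 5% of groups only where the 4 values are drawn alike. The larval arrays differed by dye orientation for most genes, so that rate cannot be applied here. The 3 adult arrays are too few for this test.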

How the results depend on the processing

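Of 740 recomputed differences of named genes, 624 kept their direction and side of the threshold, 41 lost the call, 26 gained one and 49 changed sign. Cyp28a5, Cyp6a9, Cyp6d4, Cyp9b1, GstT4, Hsp22, Cyp311a1 and GstE8 were called alike in each of 20 settings. The count of genes higher in larvae, 18 as reported, was 8 as deposited, 31 with arrays centred on 4 control genes, 9 when arrays had equal spread and 31 with only the arrays that had the exposed pool in Cy5. The count of lower genes, 10 as reported, was 2 as deposited, 5 centred on control genes, 26 with a dye term per compound and stage, 17 over pool pairs, 21 in the Cy5 orientation and 32 in the Cy3 orientation; the last 2 subsets were chosen after seeing the data. Larval calls numbered 69 and fell to 39 at 2-fold, and the 29 adult calls became 44 with a dye term per compound and stage, 50 over pool pairs and 50 in the Cy3 orientation. Leaving out 1 array at a time gave 17 to 20 higher, 8 to 12 lower, 60 to 71 larval and 21 to 34 adult calls. With the array number as a replicate block, 19 genes were higher and 10 lower, including all 18 and all 10 reported, and of the named genes only the adult call of GstD3 was lost. The cause of these changes was not tested.

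Signs turned with arrays scaled to the same spread for GstD2 (-1.53), GstE3 (-1.40), Cyp6a2 (-1.25), Cyp6w1 (-0.71), Cyp6a21 (-0.69), GstD3 (-0.52), Cyp4e2 (-0.465), Cyp4p1 (-0.44), Cyp6d5 (-0.41), GstD4 (-0.34) and Cyp6g1 (-0.17). Cyp12c1 turned to 0.11 and Cyp4ae1 to 0.0805 as deposited, and centred on control genes Cyp12c1 was 0.48, Cyp4ae1 0.45 and Cyp9b2 0.17. With adult array 4 kept these were 0.24, 0.61 and 0.0626, and with only the Cy5 orientation 0.23, 0.335 and 0.39, where Cyp6a2 was -0.20. Cyp12c1 was 0.0245 with only the 7 phenobarbital arrays and 0.0088 with the replicate block. In the Cy3 orientation GstD4 (-0.82), GstD3 (-0.67), GstE3 (-0.51), Cyp4p1 (-0.12) and GstD7 (-0.0228) turned. GstD3 was -0.11 centred on all spots, and -0.0886 both over pool pairs and with a dye term per compound and stage. Cyp6a2 was -0.23 with the median of spots and -0.0595 with at least 3 spots. Leaving out 1 array moved Cyp6a2 between -0.48 and 0.99, GstD3 between -0.13 and 0.22, Cyp4ae1 between -0.14 and 0.0943 and Cyp12c1 between -0.0987 and 0.0629.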

Other observations

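Besides the named genes, the arrays carry spots for which the probe table gives no gene. Of 830 such spots with a ratio on all 7 arrays, 6 (0.7%) were at least 2-fold higher in larvae than in adult males without overlap of the arrays, and 17 (2.0%) were lower. Of 531 spots of named genes, 62 (11.7%) were higher and 27 (5.1%) lower by the same rule. What the unnamed spots hold was not analysed here.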
